A study of Mus musculus with 8 samples.

Results

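The genes described here are 8 genes known from the red cell, taken by their mouse Ensembl identifiers from the 27679 genes of the deposited count table: the alpha-globin gene Hba-a1, the anion exchanger Slc4a1 (band 3), the skeleton genes Ank1, Sptb, Epb41 and Epb42, the Rh-associated glycoprotein gene Rhag, and the transcription factor gene Klf1. All 8 were listed. They were followed in megakaryocytes, the large marrow cells that release platelets, obtained from the bone marrow of WT C57BL/6 mice. Marrow cells were freed of lineage-positive cells with magnetic beads and grown for 3 days in hydrogel, a soft gel (methylcellulose 2%, 30 to 60 Pa in Young modulus), or in liquid medium. A gradient of 2 to 4% BSA then served to isolate the large, mature cells of both groups. Each culture gave 4 libraries of polyA RNA, which the submitters call independent biological replicates. Library totals were 27012172 to 37059314 counts in hydrogel and 28825468 to 49281611 counts in liquid. Genotype, tissue, culture time and enrichment were the same in both groups.

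Hemoglobin is assembled from alpha and beta globin chains and carries oxygen in the red cell. Beneath the red cell membrane, spectrins form a flexible lattice, which ankyrin and protein 4.2 tie to band 3 and which protein 4.1 ties to short actin filaments and glycophorin C. Red cells and megakaryocytes descend from a shared progenitor and share GATA1 and several of its partners, while KLF1 is known for driving erythroid genes. Platelets and their precursors hold a spectrin-based membrane skeleton of their own.

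The promoters are shown because the genes listed at or near 0 and the abundant ones stand next to each other here as sequences, and because the copy of alpha globin bears on how Hba-a1 reads can be counted. RefSeq promoter windows of GRCm38.p6, running from 250 bases before to 50 bases after the annotated start, were matched by symbol for 6 of the 8 genes: Hba-a1, Klf1, Rhag, Epb42, Sptb and Epb41. Capitals mark 2 sets of letters searched on both strands: AGATAA or TGATAA, the letters that GATA factors are known to bind, and CCNCNCCC, the letters known for KLF1 and its relatives. Overlapping matches run together in the capitals. The windows are those of Hba-a1 at chr11:32283422-32283721 on the plus strand, Klf1 at chr8:84901732-84902031 on the plus strand, Rhag at chr17:40810899-40811198 on the plus strand, Epb42 at chr2:121036828-121037127 on the minus strand, Sptb at chr12:76710498-76710797 on the minus strand, and 1 of 3 Epb41 windows at chr4:132049029-132049328 on the minus strand.
Hba-a1: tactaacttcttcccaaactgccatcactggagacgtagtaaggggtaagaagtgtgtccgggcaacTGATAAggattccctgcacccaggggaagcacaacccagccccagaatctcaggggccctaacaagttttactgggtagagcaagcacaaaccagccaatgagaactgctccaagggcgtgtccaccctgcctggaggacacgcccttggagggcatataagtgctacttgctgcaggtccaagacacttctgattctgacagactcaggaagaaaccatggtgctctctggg
Klf1: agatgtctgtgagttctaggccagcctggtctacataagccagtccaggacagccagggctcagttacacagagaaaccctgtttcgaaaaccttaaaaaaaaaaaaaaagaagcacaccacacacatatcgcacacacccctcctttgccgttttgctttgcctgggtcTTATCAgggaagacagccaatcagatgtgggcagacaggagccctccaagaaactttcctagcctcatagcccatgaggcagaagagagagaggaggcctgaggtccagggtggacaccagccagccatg
Rhag: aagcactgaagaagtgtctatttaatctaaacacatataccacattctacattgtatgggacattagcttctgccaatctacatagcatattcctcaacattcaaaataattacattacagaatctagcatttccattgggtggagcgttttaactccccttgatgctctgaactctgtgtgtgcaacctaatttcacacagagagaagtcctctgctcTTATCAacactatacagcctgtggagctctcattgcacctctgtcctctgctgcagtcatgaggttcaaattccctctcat
Epb42: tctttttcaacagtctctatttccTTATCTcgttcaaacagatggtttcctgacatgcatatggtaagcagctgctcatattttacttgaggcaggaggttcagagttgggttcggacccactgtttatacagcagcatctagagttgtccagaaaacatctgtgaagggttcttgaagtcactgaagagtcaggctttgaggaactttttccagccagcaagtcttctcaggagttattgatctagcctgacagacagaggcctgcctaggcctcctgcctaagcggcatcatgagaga
Sptb: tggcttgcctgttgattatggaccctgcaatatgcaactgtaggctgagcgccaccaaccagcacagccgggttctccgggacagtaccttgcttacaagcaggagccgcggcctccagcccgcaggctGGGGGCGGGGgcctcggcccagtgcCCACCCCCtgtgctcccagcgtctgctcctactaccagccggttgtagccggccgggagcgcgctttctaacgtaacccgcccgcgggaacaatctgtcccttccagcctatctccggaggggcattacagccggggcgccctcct
Epb41: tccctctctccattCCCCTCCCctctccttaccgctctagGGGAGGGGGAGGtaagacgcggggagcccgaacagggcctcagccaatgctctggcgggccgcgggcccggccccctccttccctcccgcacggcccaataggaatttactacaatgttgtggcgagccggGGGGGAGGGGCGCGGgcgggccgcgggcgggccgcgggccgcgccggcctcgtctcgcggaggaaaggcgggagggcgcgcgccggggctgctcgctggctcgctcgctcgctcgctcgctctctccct

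The GATA letters occurred 1 time each in the windows of Hba-a1, Klf1, Rhag and Epb42, and in none of those of Sptb and Epb41. Among all 32851 RefSeq promoter windows of the same length, 18.6% held them. The CCNCNCCC letters occurred 3 times in the Sptb window and 6 times in the Epb41 window shown and 0 and 3 times in its other 2 windows, against 49.5% of all windows with at least 1 match, and were absent from the other 4 windows shown. A match describes these letters and is neither a binding site nor a cause of any level given below. The window of Hba-a1 was identical to that of its copy Hba-a2 over 297 of 297 aligned bases.

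The 8 genes lay far apart in level. Levels between genes are given as CPM, which are counts scaled to library size after TMM, edgeR's correction for library composition, per kilobase of merged exon. On that scale Epb41 averaged 43.3 and Sptb 31.5 over the 8 libraries, Hba-a1 4.81, Epb42 0.225, Klf1 0.103, Ank1 0.0315, and Rhag and Slc4a1 0.00167 and 0.00162. Of 26534 genes with a symbol, Epb41 ranked 1114 from the top and Sptb 1608, Hba-a1 6738, Epb42 13400, Klf1 15348, Ank1 18883, Rhag 25779 and Slc4a1 25810. The 2 genes at the top encode proteins of the spectrin lattice, while band 3 and the Rh-associated glycoprotein, membrane proteins to which that lattice is tied in the red cell, were represented by single reads.

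**Figure D1:**
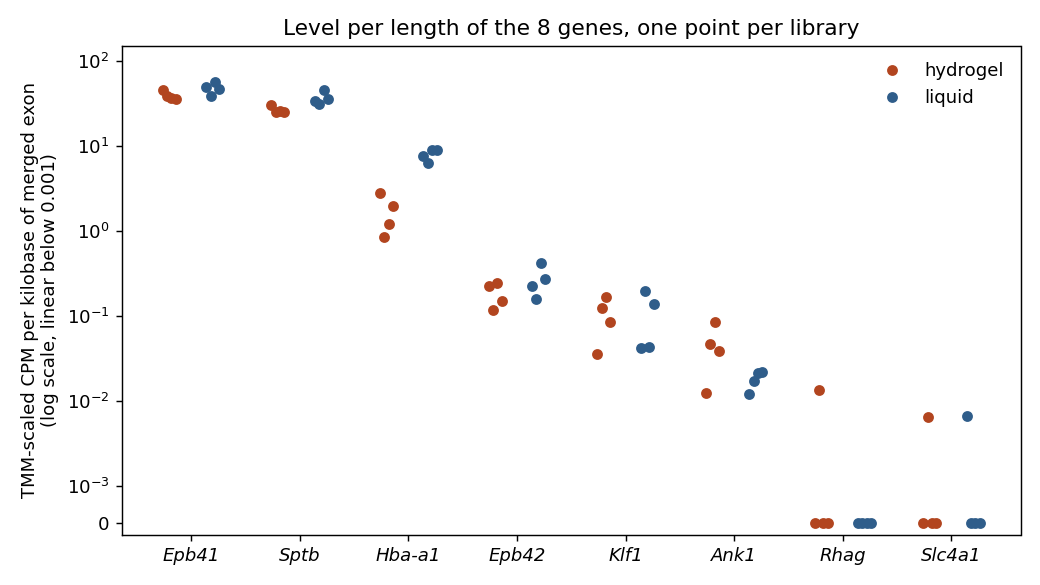
TMM-scaled CPM per kilobase of merged exon (log axis, linear below 0.001) of the 8 genes in each of the 4 hydrogel and 4 liquid libraries, genes in order of their mean. Epb41 and Sptb lie near the top in both cultures, Hba-a1 is the gene whose cultures stand clearly apart, and Rhag and Slc4a1 are at 0 in most libraries.

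Neighbours in this order were not all distinct. Epb41 was above Sptb within each of the 8 libraries on this scale, at 39.0 ± 4.67 against 26.4 ± 2.71 CPM per kilobase in hydrogel and 47.7 ± 7.01 against 36.7 ± 6.41 in liquid (SD, n = 4 each). Epb42 and Klf1 overlapped in their ranges over libraries, with 0.182 ± 0.0600 and 0.102 ± 0.0558 CPM per kilobase in hydrogel and 0.268 ± 0.112 and 0.104 ± 0.0746 in liquid. Klf1 and Ank1 also overlapped, Ank1 having 0.0451 ± 0.0295 in hydrogel and 0.0179 ± 0.00450 in liquid. Rhag and Slc4a1, with 1 and 2 reads in all, could not be ordered. Epb41 has transcripts of very different lengths, so that its level per kilobase was 265 with the longest coding length and 83.2 with the longest transcript, and the same lengths left it highest.

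In the comparison of hydrogel with liquid, 4 of the 8 genes had enough counts for edgeR's filter and its quasi-likelihood test, with Benjamini-Hochberg adjustment over 13845 tested genes at 0.05. Hba-a1 and Sptb fell in hydrogel, 0 rose, and Epb41 and Epb42 did not pass. For comparison, 29.3% of all tested genes were called, 15.1% higher and 14.1% lower in hydrogel (2096 and 1956 genes, or 1755 and 2492 with upper-quartile scaling and 2280 and 1513 with library totals alone). The median log2 fold change was −0.52 over the 4 tested members and −0.01 over all tested genes. The 2 cultures did not overlap for Hba-a1 and Sptb, as was the case for 28.4% of tested genes. Without hydrogel 2, 3 or 4, only Hba-a1 remained called lower among the members, and without hydrogel 1 Ank1 entered the test and was called higher. Leaving out hydrogel 2 also took the count of all genes called lower to 1224. In bulk RNA, fewer cells of a type and less RNA per cell cannot be told apart.

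**Figure D2:**
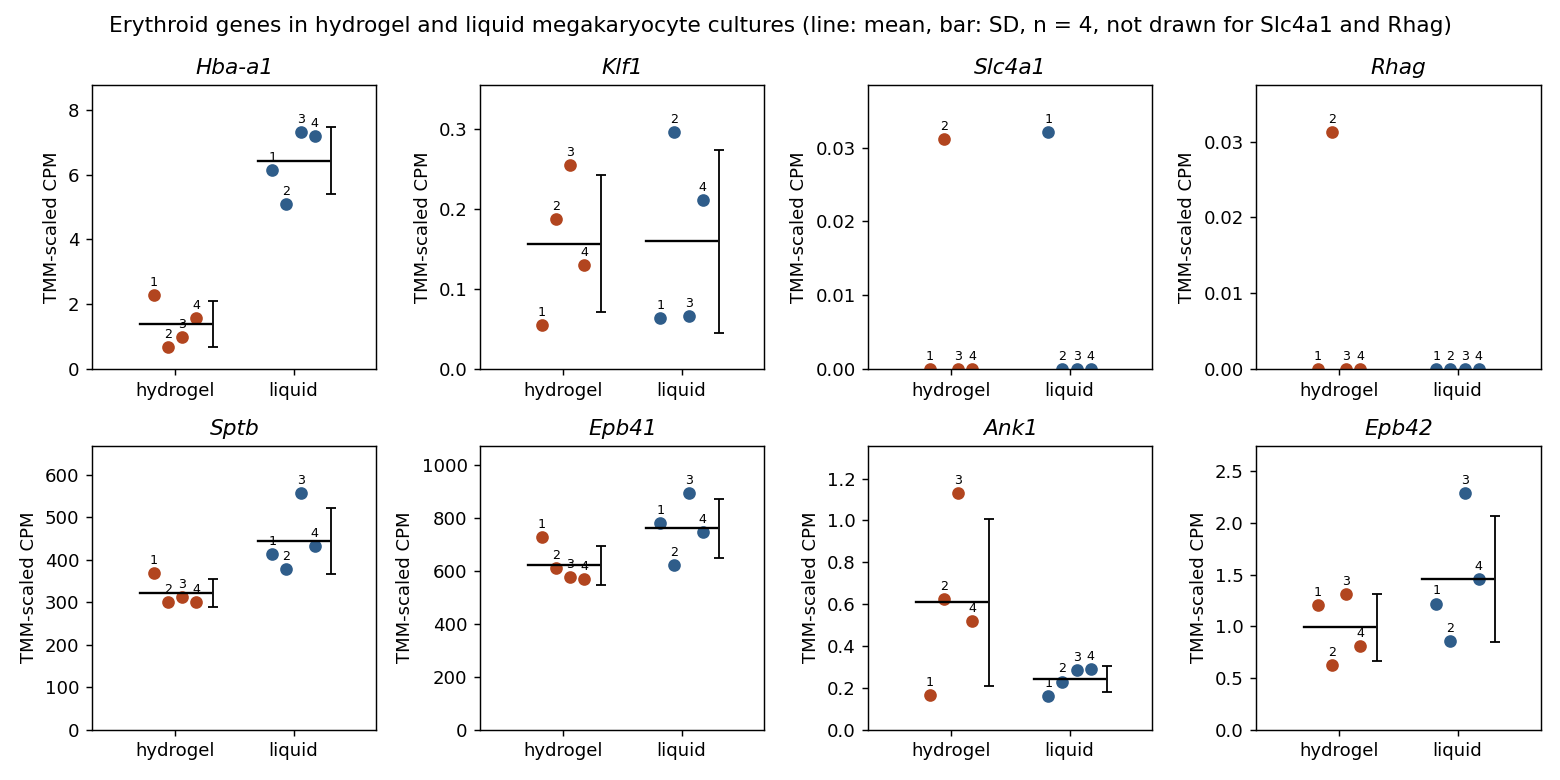
TMM-scaled CPM of each gene in the 4 hydrogel and 4 liquid libraries, numbered by replicate, with the mean and SD except for Slc4a1 and Rhag, which had at most 1 read in a library. The cultures separate for Hba-a1 and Sptb and overlap for the other genes; each panel has its own axis from 0.

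Hba-a1 (ENSMUSG00000069919, chromosome 11), which encodes the alpha chain of adult hemoglobin, had 2.27, 0.687, 0.985 and 1.59 CPM in hydrogel libraries 1 to 4, against 6.13, 5.10, 7.31 and 7.19 CPM in liquid libraries 1 to 4. These rest on 83, 22, 27 and 49 reads in hydrogel and 191, 155, 332 and 272 reads in liquid. Every hydrogel library lay below every liquid library. The means were 1.38 ± 0.701 CPM in hydrogel and 6.43 ± 1.04 CPM in liquid (SD, n = 4 each), 4.61-fold lower in hydrogel, with a log2 fold change of −2.20 ± 0.32 (SE, adjusted p = 0.00108 by edgeR's quasi-likelihood test). It stayed called with each library left out, at −2.56 to −1.98. Of the 50-base windows along its transcript, 67.5% also occur in Hba-a2, the second adult alpha-globin gene, so that reads could be split between the copies or dropped. Hba-a2 itself had 4, 2, 0 and 0 reads in hydrogel and 9, 19, 6 and 5 in liquid. With the reads of both copies added, the log2 fold change was −2.22.

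The other tested globin genes did not follow Hba-a1 in one direction. Of 14 globin and globin chaperone names, 8 were listed and 4 tested: 1 fell, Hba-a1 itself, 0 rose, and the median log2 fold change was 0.11. Leaving out hydrogel 1 or liquid 1 took the count that fell to 2. Hbb-bt, an adult beta-globin gene and the most abundant of the group, had 49.1, 14.4, 20.9 and 27.6 CPM in hydrogel and 23.3, 8.51, 20.7 and 15.8 CPM in liquid. Hydrogel 1 was the highest of all 8 and liquid 2 the lowest, the cultures overlapped, and the log2 fold change of 0.71 ± 0.38 did not pass (adjusted p = 0.190, edgeR). With the replicate number as a block, Hbb-bt was called higher (0.66, adjusted p = 0.0204, edgeR), though the labels do not say that a number marks a shared batch. Its near-identical neighbour Hbb-bs, which shares 58.3% of the 50-base windows of Hbb-bt, had 0.312 to 1.33 CPM in hydrogel and 0.296 to 0.660 CPM in liquid and did not pass (0.73, adjusted p = 0.257), nor did the embryonic gene Hbb-y (−0.50, adjusted p = 0.418). Hbq1b, a theta-globin gene of the alpha-globin cluster, lay under the filter with 18 reads in hydrogel and 71 in liquid over 4 libraries each. Its CPM were 0.0312 to 0.247 in hydrogel and 0.289 to 0.714 in liquid. For Hbq1b and for Hba-a2, also under the filter, every hydrogel library lay below every liquid one, on few reads. Neither was tested in the filtered fit. With no low-count filter, 1 globin gene was called lower, Hba-a1, so neither of these passed there.

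Within a library, the ratio of alpha to beta globin reads does not depend on the scaling of library size. The reads of Hba-a1 per read of Hbb-bt were 0.0463, 0.0477, 0.0470 and 0.0575 in hydrogel and 0.263, 0.598, 0.352 and 0.456 in liquid. The 4 hydrogel ratios lay close together and all far below the liquid ones, 8.06-fold lower on average (log2 −3.01, p = 0.0286 by a two-sided exact permutation test, the smallest that 4 against 4 libraries can give; 0.0429 adjusted over 3 ratios). This ratio and the 2 spectrin and protein 4.1 ratios below were chosen after the values of the genes were seen. The adjustment does not count that choice. The p of the globin ratio is therefore no support apart from the values of Hba-a1 and Hbb-bt themselves. Both genes share most of their sequence with a copy, and what the counting did with such reads was not tested.

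Sptb (ENSMUSG00000021061, chromosome 12) encodes the beta spectrin of the red cell. It had 369.7, 301, 313 and 300.3 CPM in hydrogel and 414, 379, 557 and 431 CPM in liquid. Every hydrogel library lay below every liquid one, with hydrogel 1 (369.7 CPM) and liquid 2 (379 CPM) next to each other. The means were 321 ± 32.9 CPM in hydrogel and 445 ± 77.8 CPM in liquid, 1.39-fold lower in hydrogel (log2 fold change −0.47 ± 0.12, adjusted p = 0.0180, edgeR). The call was lost without hydrogel 2 (adjusted p = 0.0603), hydrogel 3 (0.0540) or hydrogel 4 (0.0567), where the value stayed between −0.46 and −0.44. Plekhg3, whose exons overlap those of Sptb on the opposite strand, had 2608 reads in hydrogel and 1828 in liquid in total and a log2 fold change of 0.71 (adjusted p = 0.0620).

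Epb41 (ENSMUSG00000028906, chromosome 4) encodes protein 4.1, which holds spectrin to actin. It had 729, 612, 576 and 568 CPM in hydrogel and 779, 622, 894 and 748 CPM in liquid. Hydrogel 1 lay above liquid 2, so the cultures overlapped. The means of 621 ± 74.4 and 761 ± 112 CPM differed by −0.29 ± 0.12 on the log2 scale, which did not pass (adjusted p = 0.105, edgeR). Without hydrogel 1 or without liquid 2 it was called lower in hydrogel, at −0.38 in each case (adjusted p = 0.0443 and 0.0208), and without both of these libraries it was −0.45 (adjusted p = 0.000773).

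Epb42 (ENSMUSG00000023216, chromosome 2), the gene of protein 4.2, which binds band 3 and ankyrin, was scarce. It had 1.21, 0.625, 1.31 and 0.809 CPM in hydrogel and 1.22, 0.855, 2.29 and 1.45 CPM in liquid. Liquid 3 was the highest, and the other liquid libraries lay among the hydrogel ones or just above them. The log2 fold change of −0.57 ± 0.35 did not pass (adjusted p = 0.254, edgeR).

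Ank1 (ENSMUSG00000031543, chromosome 8), the gene of the ankyrin that joins spectrin to band 3, lay under the filter with 6, 20, 31 and 16 reads in hydrogel and 5, 7, 13 and 11 in liquid. In CPM these were 0.164, 0.625, 1.13 and 0.518 in hydrogel and 0.161, 0.230, 0.286 and 0.291 in liquid. Hydrogel 2, 3 and 4 exceeded every liquid library, and hydrogel 1 lay among the liquid ones. A fit with no filter, added after the counts were seen, gave a log2 fold change of 1.28 ± 0.53 (adjusted p = 0.135, edgeR), which passed without hydrogel 1 (1.61, adjusted p = 0.0232). Of the 50-base windows of its transcript, 2.31% also occur in the antisense gene Gm15816.

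Klf1 (ENSMUSG00000054191, chromosome 8) had 2, 6, 7 and 4 reads in hydrogel and 2, 9, 3 and 8 in liquid. The cultures overlapped throughout, at 0.157 ± 0.0853 CPM in hydrogel and 0.159 ± 0.114 CPM in liquid (SD, n = 4 each). The unfiltered log2 fold change was −0.03 ± 0.75 (adjusted p = 0.983, edgeR), too imprecise to bound a change. Slc4a1 (ENSMUSG00000006574, chromosome 11) had 1 read in hydrogel and 1 in liquid, and Rhag (ENSMUSG00000023926, chromosome 17), a gas and ammonium channel protein, had 1 read in hydrogel and 0 in liquid. A count of 0 in a single library allows up to 3 reads, or 0.0660 to 0.109 CPM depending on the library, and this limit covers counting error only.

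Spectrin and protein 4.1 reads were compared within each library in the same way as the globins. Sptan1, a spectrin of cells outside the red lineage, had 1.77, 1.86, 1.88 and 1.88 reads per Sptb read in hydrogel and 1.36, 1.43, 1.28 and 1.33 in liquid. Each hydrogel ratio was above each liquid ratio, 1.37-fold on average (log2 0.45, adjusted p = 0.0429 over 3 ratios, exact permutation test). The ratio was chosen after Sptb was seen to fall, which the adjustment does not count. Its p is therefore no support apart from the Sptb result.

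Epb41 reads per Sptb read were 1.97, 2.03, 1.84 and 1.89 in hydrogel and 1.88, 1.64, 1.60 and 1.73 in liquid. The ranges overlapped, since liquid 1 lay above hydrogel 3, and the difference of 0.17 on the log2 scale gave p = 0.0571 (exact permutation test). These 2 ratios share the Sptb reads, which fell in hydrogel themselves.

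**Figure D3:**
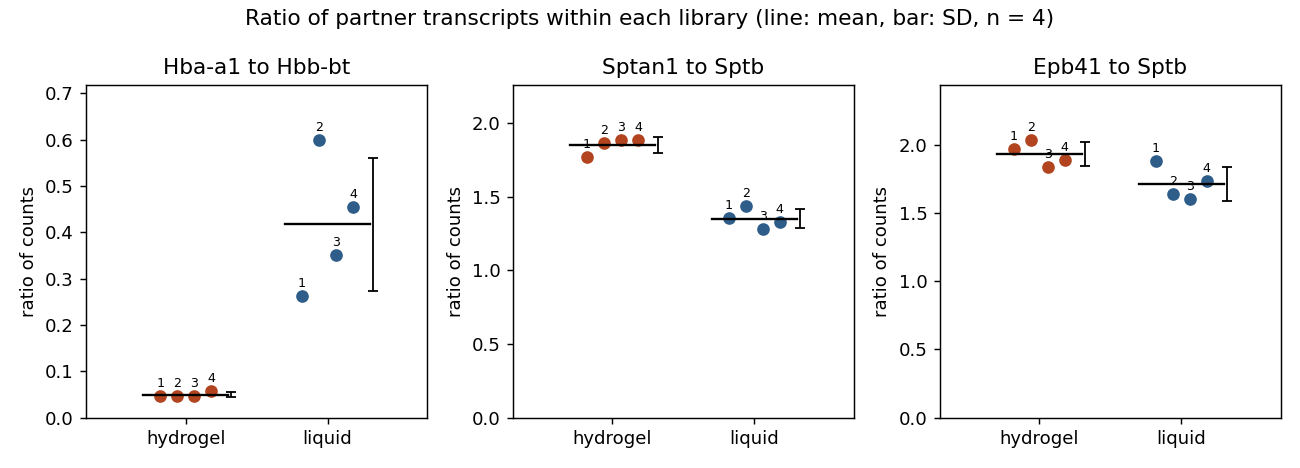
Reads of one gene per read of its partner in each hydrogel and liquid library (numbered by replicate), with the mean and SD. Hba-a1 per Hbb-bt is lower in all 4 hydrogel libraries, Sptan1 per Sptb is higher in all 4, and Epb41 per Sptb overlaps between cultures.

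Across the 8 libraries, the log2 CPM of Sptb and Epb41 varied together with a Pearson r of 0.93, and Hba-a1 and Sptb with 0.87. Sptb and Epb42 had 0.83, Epb41 and Epb42 0.77, Hba-a1 and Epb41 0.76, and Hba-a1 and Epb42 0.62. These values describe 8 libraries that share their culture difference and carry no test. Among 11827 candidate genes, the 2 most like Hba-a1 were Dapk2 (r = 0.991) and Chn2 (0.990), and the 2 most like Sptb were Pias3 (0.993) and Prokr1 (0.992). Epb41 was most like Ptpn11 (0.992) and Zfand5 (0.991), and Epb42 most like Cldn12 (0.975) and Lzts1 (0.966). Dapk2 had 2.68 ± 1.05 CPM in hydrogel and 17.2 ± 3.39 CPM in liquid (SD, n = 4 each).

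Other genes of the membrane skeleton moved little. Of 13 tested genes of this group (14 of 15 listed), 2 fell and 1 rose, with a median log2 fold change of −0.15. Over all tested genes, 15.1% were called higher and 14.1% lower, the background for the counts of this and the following groups. Sptb and Tpm3, a tropomyosin of the short actin filaments, fell, Tpm3 by 0.23 on the log2 scale (adjusted p = 0.0460, edgeR; under 0.05 in 1 of 8 fits with a library left out and in 5 of 9 other settings, and lost with DESeq2's size factors at 0.0512, library totals alone at 0.0706, no low-count filter at 0.0992 and limma-voom at 0.0518). Tmod1, the tropomodulin that caps these filaments, rose to 1.95 ± 0.467 CPM in hydrogel, against 1.07 ± 0.145 CPM in liquid (0.87, adjusted p = 0.0216; lost without hydrogel 2, hydrogel 3 or liquid 4). Beta-actin, Actb, had 6740.3 ± 299.6 CPM in hydrogel and 7472 ± 786 CPM in liquid and did not pass (adjusted p = 0.441). The number that fell was 0 without hydrogel 2, 3 or 4, 1 without liquid 1, 3 or 4, and 4 without liquid 2, and the number that rose was 0 without hydrogel 2 or liquid 4 and 2 without hydrogel 1 or liquid 3.

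Red cell membrane proteins split in both directions. Of 16 tested genes (21 of 23 listed), 5 fell and 3 rose, with a median log2 fold change of −0.21; without liquid 2, 10 fell. Aqp1, the water channel, fell to 15.7 ± 4.81 CPM in hydrogel, against 38.2 ± 7.65 CPM in liquid (−1.28, adjusted p = 0.00179, edgeR). The adhesion molecule Icam4 fell by 1.01 on the log2 scale (adjusted p = 0.00264), Cd47, a surface signal that restrains phagocytes and sits with the Rh complex in red cells, by 0.71 (adjusted p = 0.00108), and the amino acid transporter Slc43a1 by 0.50 (adjusted p = 0.00736). Slc29a1, a nucleoside transporter, rose to 18.2 ± 4.99 CPM in hydrogel, against 5.59 ± 1.98 CPM in liquid (1.71, adjusted p = 0.00187). Piezo1, the stretch-gated cation channel, rose to 124 ± 24.3 CPM in hydrogel, against 53.3 ± 14.0 CPM in liquid (1.22, adjusted p = 0.00138). The urea transporter Slc14a1 was the most abundant of the group with 1017 ± 89.2 CPM in hydrogel and 1298 ± 196 CPM in liquid and did not pass (−0.35, adjusted p = 0.0568; called without hydrogel 1 or liquid 2, adjusted p = 0.0380 and 0.00664, and in 5 of 9 other settings, among them upper-quartile scaling at 0.0352, library totals alone at 0.0468, no low-count filter at 0.0458 and DESeq2 at 0.0214).

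Genes of heme synthesis and its iron supply also split, with 5 higher and 5 lower of 17 tested (18 listed) and a median of −0.13. The number that fell was 1 without hydrogel 2 and 3 without hydrogel 3, hydrogel 4 or liquid 1, 3 or 4. Alas2, the erythroid form of the first enzyme, had 3 reads in all. Alas1, the form used outside the red lineage, rose to 82.1 ± 12.4 CPM in hydrogel, against 47.6 ± 11.5 CPM in liquid (0.79, adjusted p = 0.00627, edgeR). Cpox, a late enzyme of the pathway, rose by 0.51 on the log2 scale (adjusted p = 0.00214), and Urod, the enzyme just before it, fell to 45.8 ± 3.87 CPM in hydrogel, against 69.0 ± 3.56 CPM in liquid (−0.59, adjusted p = 0.000665). The iron reductase Steap3 (0.95, adjusted p = 0.0112) and the iron transporter Slc11a2 (0.48, adjusted p = 0.00733) rose, and the porphyrin transporter Tmem14c fell (−0.54, adjusted p = 0.0149; 0.0520 without hydrogel 2). Tfrc, the transferrin receptor, was the most abundant at 508 ± 34.4 CPM in hydrogel and 430.3 ± 19.6 CPM in liquid (0.24, adjusted p = 0.0401), a call kept in 1 of 8 fits with a library left out and lost with upper-quartile scaling (0.116) and with no low-count filter (0.0966).

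Among 22 tested regulators of erythroid development (24 listed), 6 fell and 3 rose, with a median of −0.13. Many of these factors, GATA1, GATA2 and NF-E2 among them, also serve megakaryocytes or mast cells. Gata2 fell to 23.1 ± 3.91 CPM in hydrogel, against 56.8 ± 15.0 CPM in liquid (−1.30, adjusted p = 0.000949, edgeR), and Bcl11a, a repressor of embryonic globin genes, to 3.31 ± 0.665 against 8.07 ± 2.22 CPM in liquid (−1.29, adjusted p = 0.00245). Epor, the erythropoietin receptor, had 68.6 ± 13.6 CPM in hydrogel and 117 ± 18.3 CPM in liquid (−0.77, adjusted p = 0.00393). E2f2, an E2F family cell cycle factor, rose by 1.31 on the log2 scale (adjusted p = 0.00409) and the Krüppel-like factor Klf13 by 0.42 (adjusted p = 0.00453). Nfe2 had 429 ± 68.5 CPM in hydrogel and 626 ± 112 CPM in liquid (−0.54, adjusted p = 0.0206), a call lost without hydrogel 2, 3 or 4 or liquid 1 or 3, and Zfpm1, the GATA1 partner FOG1, did not pass (−0.09, adjusted p = 0.512). The number that fell was 3 without hydrogel 2, 3 or 4 or liquid 1 or 3, and 5 rose without liquid 3.

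Among relatives of the 8 genes outside the red cell, members of the protein 4.1 family changed in both directions. Of 18 tested (26 of 27 listed), 3 rose and 3 fell, with a median of −0.07; 5 rose without liquid 3. Epb41l3, a protein 4.1 relative, had 2.84 ± 0.716 CPM in hydrogel and 0.285 ± 0.249 CPM in liquid, 10.3-fold higher in hydrogel (3.36 ± 0.47, adjusted p = 0.000892, edgeR). Epb41l1 rose 6.34-fold (2.66, adjusted p = 0.00301) and Epb41l2 1.47-fold (0.56, adjusted p = 0.00414). In the same protein 4.1 family, Epb41l5 fell by 1.05 on the log2 scale (adjusted p = 0.000862) and Epb41l4b by 0.97 (adjusted p = 0.0112), and among the relatives of band 3 the bicarbonate cotransporter Slc4a4 fell by 1.14 (adjusted p = 0.00438). The widely used spectrins Sptan1 and Sptbn1 were the most abundant and did not pass, at −0.01 and −0.16 (adjusted p = 0.936 and 0.341).

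**Figure D4:**
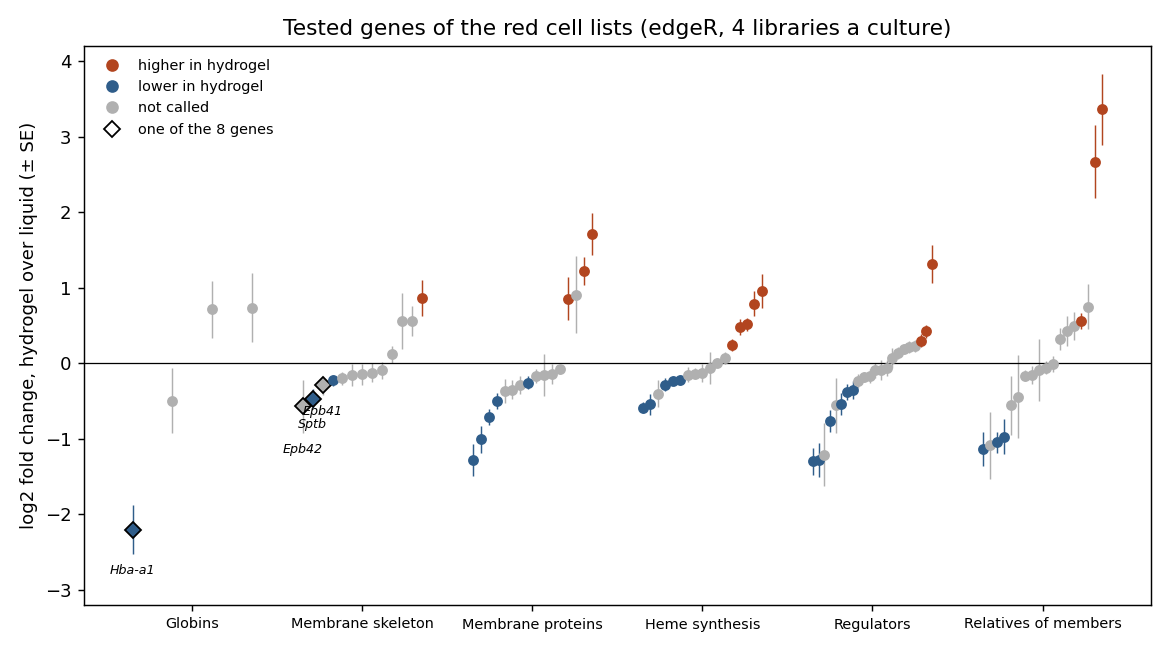
Log2 fold change of hydrogel over liquid with its SE (vertical axis) for each tested gene of 6 groups, coloured by edgeR call at an adjusted p under 0.05, with diamonds for members. Of the globins drawn, only Hba-a1, at −2.20, is called. Its cluster neighbours Hba-a2 and Hbq1b lay under the filter and are not drawn. The skeleton genes lie near 0, and the groups of membrane proteins, heme genes, regulators and relatives hold calls on both sides.

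Markers of the labelled cell type and of others differed between the cultures and are given beside these results. Summed over 12 megakaryocyte markers, the level was 26307 to 38290 CPM in hydrogel and 32239 to 52501 CPM in liquid, and 9 of 12 fell. Over 12 macrophage markers it was 3472 to 7309 CPM in hydrogel and 963 to 2020 CPM in liquid, and 9 of 12 rose. Hydrogel 1 and liquid 2 lay between the other libraries on both lists: macrophage markers summed to 3472 CPM in hydrogel 1, against 6210 to 7309 CPM in hydrogel 2 to 4, and to 2020 CPM in liquid 2, against 963 to 1188 CPM in liquid 1, 3 and 4. The erythroid markers (13 of 14 listed) summed to 109 to 190.4 CPM in hydrogel and 129 to 203 CPM in liquid, with the defining genes Alas2, Slc4a1, Rhag and Car1 at 3 reads or fewer over all libraries. The sum was 190.4 CPM in hydrogel 1, against 109 to 123 CPM in hydrogel 2 to 4. In liquid 2 it was 129 CPM, against 170 to 203 CPM in liquid 1, 3 and 4. Epor alone held 59.2 to 88.8 CPM of this sum in hydrogel and 94.3 to 139 CPM in liquid. Mast cell and basophil markers, Gata2 among them, summed to 77.4 to 192 CPM in hydrogel and 138 to 594 CPM in liquid, and 7 of 8 tested fell. Neutrophil markers had 420.3 to 977 CPM in hydrogel and 416 to 1803 CPM in liquid (2 of 11 tested rose and 1 fell), and dendritic cell markers 92.2 to 162 CPM in hydrogel and 74.7 to 162 CPM in liquid (1 of 8 tested rose and 5 fell). Their part in the changes of Hba-a1, Sptb and the other genes named was not tested. Without hydrogel 1 and liquid 2, Hba-a1 was at −2.64 and Sptb at −0.60 on the log2 scale, both called.

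**Figure D5:**
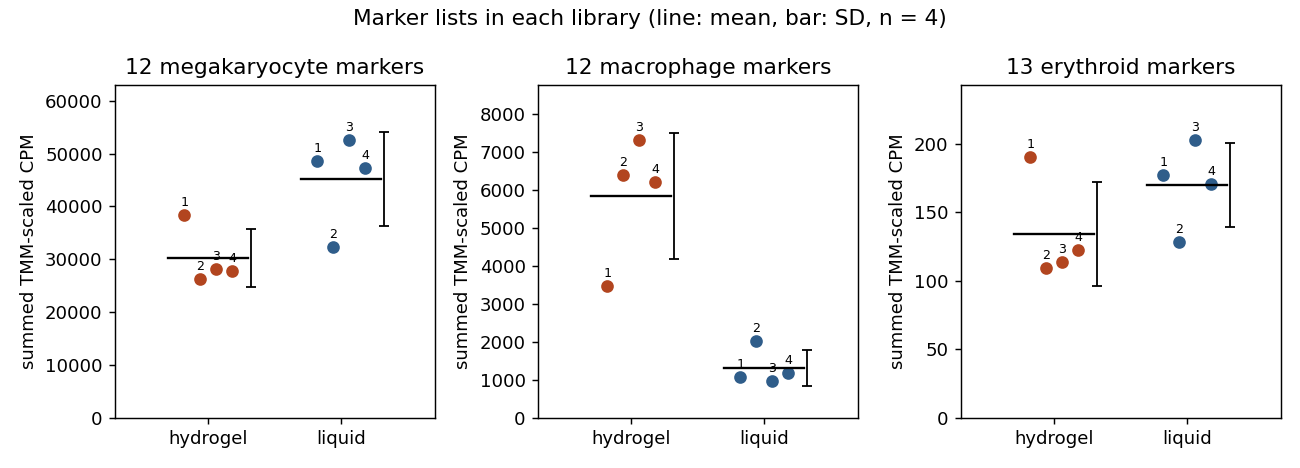
Summed TMM-scaled CPM of 12 megakaryocyte, 12 macrophage and 13 erythroid markers in each hydrogel and liquid library (numbered by replicate), with the mean and SD. Macrophage markers are higher in every hydrogel library, hydrogel 1 and liquid 2 lie toward the other culture, and the erythroid sums run from 109 to 203 CPM.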

How the data were processed

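Gene expression was measured by RNA-seq of 4 hydrogel and 4 liquid cultures. The authors deposited 1 table of raw counts per gene, not normalized. Libraries were polyA-selected and stranded, per the labels' protocols. The submitters' processing notes name bcl2fastq, HTSeq 0.13.5, STAR 2.7.10b and the genome build GRCm39. The annotation release, strand setting and treatment of reads from near-identical genes were not given in the sources used here, so overlapping genes and close copies are uncertain. Of 27679 genes, 26534 had a symbol in GENCODE M21, an annotation of another build used for names, lengths, overlaps and shared windows but not for coordinates; 2 stray text lines were left out.

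Counts were filtered with filterByExpr by culture, scaled by TMM and tested with the quasi-likelihood test (edgeR 4.0.16, R 4.3.3), culture being the only term, with Benjamini-Hochberg adjustment over 13845 genes. The SE is the size of the log2 fold change divided by the square root of F. CPM use the same library sizes. P-values measure the spread between cultures as labelled. Total counts of 27012172 to 49281611 per library set the precision of the scarce genes. Ratios of partner genes were tested on log2 ratios with exact permutation tests that enumerated every split of the libraries, and scipy 1.17.1 adjusted their p-values. Figures were drawn with matplotlib 3.10.9, and log2 CPM for correlations had a prior count of 2. The tests were also run on simulated data.

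All 8 members were named. From each of the 6 other lists, up to 6 called genes with the smallest adjusted p and the 2 most abundant were eligible, with the 2 genes most like each member of at least 1 CPM; other genes were named for their bearing on a member after their values were seen. The members and lists were chosen with earlier results of these data known, and the values of 1 gene of the lists are not reported here. Alternatives were other scalings, filters and tests (DESeq2 1.42.0, limma 3.58.1), the replicate number as a block, other gene lengths, and libraries left out.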

Additional observations from a re-analysis of the deposited data

Results flagged for a closer look

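For 41 genes and the 3 ratios, 84 groups of 4 libraries were examined for a library far from the other 3 of its culture, a rule that chance alone meets in about 1 of 20 groups, and 6 were found. In hydrogel, replicate 4 had 0.0575 Hba-a1 reads per Hbb-bt read, against 0.0463 to 0.0477 in the other hydrogel libraries. Replicate 1 had 288 CPM of Tmem14c, against 212 to 225 CPM in the other hydrogel libraries. In liquid, replicate 2 had 74.2 CPM of Piezo1, against 44.5 to 48.2 CPM in the other liquid libraries, and 0.657 CPM of Epb41l3, against 0.132 to 0.193 CPM. Liquid 3 had 888 CPM of Zfpm1, against 703 to 715 CPM, and 713 CPM of Sptan1, against 543 to 572 CPM.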

How the results depend on the processing

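Hba-a1 stayed called lower in hydrogel under each of 9 other settings and each library left out, and Sptb under each of the 9 settings. Leaving out both hydrogel 1 and liquid 2 gave Sptb −0.60, Epb41 −0.45 (called), unfiltered Ank1 1.60 (adjusted p = 0.0144) and unfiltered Klf1 0.73; it left 2638 genes called lower in all, 1 member higher, 2 globins lower, 2 skeleton genes higher and 7 lower, 11 membrane genes lower, 5 regulators higher and 8 lower, and 5 relatives higher and 5 lower. With library totals alone, Klf1 was 0.0200, 2 skeleton genes were higher and 1 lower, 2 heme genes lower, 6 regulators and 5 relatives higher. With no filter on low counts, 2 skeleton genes were higher and 1 lower, 2 heme genes lower and 5 relatives higher. DESeq2 gave 2 skeleton genes and 5 relatives higher, and DESeq2's size factors and limma-voom each gave 1 skeleton gene lower. With the replicate number as a block, Klf1 was 0.0509, 1 globin was higher (Hbb-bt, 0.66, adjusted p = 0.0204) and 5 relatives were higher; the labels do not say that a number marks a shared batch, and the deviations of same-numbered libraries correlated with r of 0.22, 0.33, −0.13 and 0.10. The cause of these differences was not tested. Levels per kilobase depended on the length used: with the longest coding length they were 9.17 for Hba-a1, 0.0744 for Ank1, 54.8 for Sptb, 265 for Epb41 and 0.589 for Epb42, and with the longest transcript 83.2 for Epb41.

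With each library left out, the log2 fold changes ran from −2.56 to −1.98 for Hba-a1, −0.55 to −0.35 for Sptb, −0.38 to −0.21 for Epb41, −0.75 to −0.26 for Epb42, 0.81 to 1.61 for unfiltered Ank1 and −0.35 to 0.42 for unfiltered Klf1. Called genes ran from 1476 to 2529 higher and 1224 to 2446 lower over all genes, 0 to 1 and 1 to 3 for members, 0 to 0 and 1 to 2 for globins, 0 to 2 and 0 to 4 for the skeleton, 2 to 3 and 4 to 10 for membrane proteins, 4 to 5 and 1 to 6 for heme, 2 to 5 and 3 to 7 for regulators, and 3 to 5 and 3 to 4 for relatives. Log2 ratio differences ran from −3.21 to −2.81 for Hba-a1 to Hbb-bt, 0.43 to 0.48 for Sptan1 to Sptb and 0.14 to 0.22 for Epb41 to Sptb. Depth limits Slc4a1, Rhag, Klf1 and Ank1, whose reads were 2, 1, 41 and 109 over all libraries.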
